A study of Mus musculus with 8 samples.

Results

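The epidermal differentiation complex is a cluster of genes on mouse chromosome 3 that build the outer, cornified layers of the skin. The genes were chosen by name: every protein-coding RefSeq gene of chromosome 3 whose symbol starts with Lce, Sprr or S100a, together with Flg, Flg2, Hrnr, Rptn, Tchh, Tchhl1, Crnn, Ivl, Lor, Crct1 and Kprp. This gave 61 of 21774 protein-coding genes: 15 S100a genes, 7 S100 fused-type genes, 14 Sprr genes, 21 Lce genes, and Lor, Ivl, Crct1 and Kprp. They lie between positions 90511034 and 93564645 of chromosome 3 (mm10), a span of 3.05 Mb, and from Lor (loricrin) to Tchhl1 the span without S100a genes is 1.39 Mb long. The tissue was total epidermis, and all animals were wild type and at P0.5, with no other genotype, treatment or age. Across 8 samples, chromatin was profiled with antibodies to MOF, Rfx2, H3K4me3, H3K27ac, H4K16Ac and H3K4me1, and peak lists of 4 libraries were used: MOF from ChIPseq, and Rfx2, H3K4me3 and H3K27ac from Cut&Run. The H3K4me3 and H3K27ac lists belong to repeat libraries per the labels, although the H3K4me3 list is not named as a repeat, so its library is uncertain. With 1 list per antibody there is no spread between replicates and no test: shares are set beside those over all protein-coding genes, and ranges given with a share are exact (Clopper-Pearson) 95% intervals, which cover counting error only.

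In the epidermis, keratinocytes leave the basal layer, move outward and replace their plasma membrane with a cornified envelope, a shell of proteins cross-linked by transglutaminases. Loricrin, involucrin and the Sprr and Lce proteins are building blocks of that shell, filaggrin and its S100 fused-type relatives aggregate keratin filaments or join the envelope, and S100a proteins are small calcium-binding proteins. H3K4me3 is a histone mark of active promoters and H3K27ac of active promoters and enhancers. MOF (Kat8) is a histone acetyltransferase that acetylates H4K16, and Rfx2 is a transcription factor known for its role at ciliary genes.

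The promoters of the complex are shown first, because the families differ in them. The 120 bases before the first transcription start site (TSS) of 11 members were read from the RefSeq promoter table (mm10), which held 55 of the 61 members. S100a14, S100a2, Lce1f, Kprp, Crct1 and S100a10 were not in it. The examples were picked after their values were seen: Lor and Ivl as envelope genes without a promoter peak, Sprr1a and Crnn as genes with H3K27ac alone, Sprr2k, Lce1c, Lce1h, Lce3d and Lce3e as members of the large families, and S100a16 and S100a11 as genes with H3K4me3. Capitals mark a TATA box (TATAAA, with TATATA counted too) and the shorter word ATAAA where they start 40 to 20 bases before the TSS, the AP-1 site TGANTCA, the KLF-type site CCNCNCCC and CG dinucleotides.
Lor (chr3:92083143-92083262, minus strand): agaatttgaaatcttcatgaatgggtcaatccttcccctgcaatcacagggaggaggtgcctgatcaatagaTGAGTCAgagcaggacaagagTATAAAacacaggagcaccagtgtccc
Ivl (chr3:92573736-92573855, minus strand): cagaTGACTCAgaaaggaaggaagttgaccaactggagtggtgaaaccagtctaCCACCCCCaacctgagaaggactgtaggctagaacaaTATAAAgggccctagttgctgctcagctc
Sprr1a (chr3:92485882-92486001, minus strand): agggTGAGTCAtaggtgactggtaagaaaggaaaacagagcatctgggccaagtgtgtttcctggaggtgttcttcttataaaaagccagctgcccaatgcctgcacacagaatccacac
Sprr2k (chr3:92432462-92432581, plus strand): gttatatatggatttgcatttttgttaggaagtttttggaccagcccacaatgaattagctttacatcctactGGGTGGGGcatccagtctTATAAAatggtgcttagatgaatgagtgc
Crnn (chr3:93144669-93144788, plus strand): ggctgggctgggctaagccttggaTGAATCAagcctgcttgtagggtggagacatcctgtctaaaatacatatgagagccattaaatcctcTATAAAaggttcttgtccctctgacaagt
Lce1c (chr3:92679127-92679246, plus strand): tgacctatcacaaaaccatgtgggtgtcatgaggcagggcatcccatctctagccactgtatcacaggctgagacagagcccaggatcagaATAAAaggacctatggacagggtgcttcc
Lce1h (chr3:92765066-92765185, minus strand): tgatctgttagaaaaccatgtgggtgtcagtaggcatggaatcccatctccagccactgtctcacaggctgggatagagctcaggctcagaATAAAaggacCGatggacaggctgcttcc
Lce3d (chr3:92957270-92957389, plus strand): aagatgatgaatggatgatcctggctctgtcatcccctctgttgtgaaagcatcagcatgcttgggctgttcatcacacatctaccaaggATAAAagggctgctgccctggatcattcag
Lce3e (chr3:92966941-92967060, plus strand): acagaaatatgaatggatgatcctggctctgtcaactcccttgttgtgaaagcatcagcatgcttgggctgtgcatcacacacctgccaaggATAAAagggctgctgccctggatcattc
S100a16 (chr3:90537134-90537253, plus strand): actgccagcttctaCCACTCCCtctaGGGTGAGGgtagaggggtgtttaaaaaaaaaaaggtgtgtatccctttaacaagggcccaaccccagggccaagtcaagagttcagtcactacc
S100a11 (chr3:93520376-93520495, plus strand): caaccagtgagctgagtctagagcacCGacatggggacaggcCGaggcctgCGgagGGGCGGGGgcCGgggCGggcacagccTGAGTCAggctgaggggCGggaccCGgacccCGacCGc

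Lor and Ivl each carried an AP-1 site and a TATA box and no CG dinucleotide in these 120 bases. Lce1c and Lce1h carried AATAAA at the place of the TATA box, and Lce3d and Lce3e carried GATAAA there. S100a11 had 10 CG dinucleotides and neither a TATA box nor ATAAA.

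Counted over the table's full window, 250 bases before to 50 bases after a TSS, a TATA box, on the strand of the gene, was found in 20 of 55 members (36.4%, 23.8 to 50.4%), against 4.14% of 17492 protein-coding genes. By family it was found in 9 of 14 Sprr genes, 4 of 7 S100 fused-type genes, 3 of 12 S100a genes and 2 of 20 Lce genes. The shorter word ATAAA, which a TATAAA box also contains, was found at that place in 17 of 20 Lce genes and 9 of 14 Sprr genes, against 5.38% of all genes. ATAAAAG was found in 15 of 20 Lce genes (75.0%, 50.9 to 91.3%), in 0 of 14 Sprr genes and in 1.30% of all genes. ATAAA and ATAAAAG were searched for after the Lce promoters had been read, so these counts describe the family and test nothing. The TATA box of Sprr1a is not counted, since its letters begin more than 40 bases from the TSS.

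The AP-1 site TGANTCA, the binding site of Jun and Fos proteins, was found on either strand in 19 of 55 member promoters (34.5%, 22.2 to 48.6%) and in 8.12% of all promoters. It was present in 9 of 14 Sprr genes, in 5 of 7 S100 fused-type genes (Crnn, Flg2, Flg, Rptn and Tchhl1), in Lor and Ivl, and in 3 of 12 S100a genes (S100a16, S100a7l2 and S100a11). None of the 20 Lce promoters held it. A GRHL site, AACCNGTT or AACNGGTT, occurred in 3 member promoters (5.45%) against 2.27% of all, and CCNCNCCC in 14 (25.5%) against 58.7%. A match is a description of letters and not a bound site.

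Member promoters were poor in CpG. The ratio of observed to expected CpG had a median of 0.0900 over 55 members and 0.564 over all genes, and the GC content a median of 46.7% and 56.3%. The highest ratios among members belonged to S100a13 at 0.530, S100a11 at 0.527 and S100a1 at 0.396, followed by S100a6 at 0.329. These 4 carried H3K4me3, as did S100a16 at 0.140 and S100a3 at 0.115, which lay below S100a8 (0.214) and S100a5 (0.187) without it. The highest ratio outside the S100a genes was that of Sprr2d, 0.320.

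**Figure D1:**
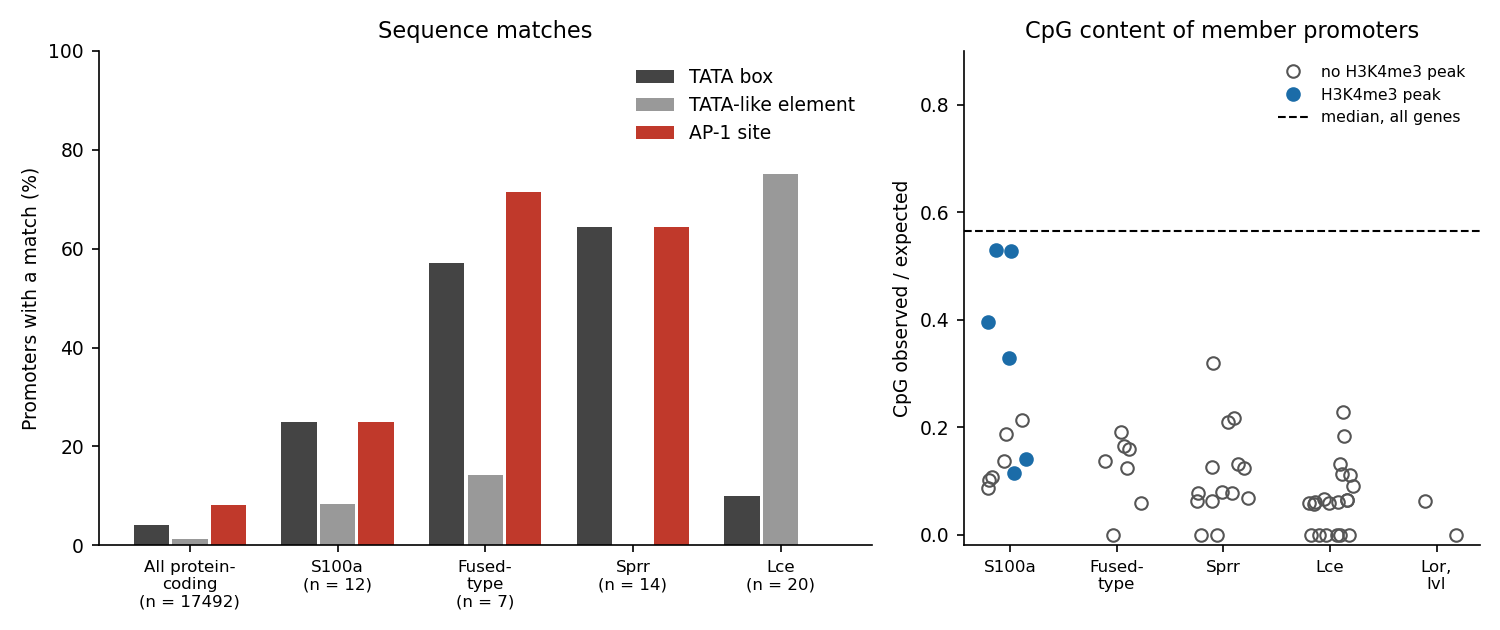
Left, percentage of promoters with a TATA box, the TATA-like element ATAAAAG or an AP-1 site in all protein-coding genes and in 4 member families. Right, observed over expected CpG of each member promoter by family, with filled points for promoters with an H3K4me3 peak and a dashed line at the median of all genes (0.564). The Lce bars show the TATA-like element in 75.0% and no AP-1 site, and the filled points are all S100a genes.

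H3K4me3 was found at few promoters of the complex. A promoter was taken as the window that starts 1 kb before a TSS and ends 100 bp past it, and a peak sharing at least 1 bp with that window was listed for 8 of 61 members (13.1%, 95% interval 5.84 to 24.2%), against 59.0% of all protein-coding genes. All 8 were S100a genes: S100a1, S100a13, S100a14, S100a16, S100a3, S100a6, S100a11 and S100a10. Most of these calls rest on the 1 bp rule. With the peak centre inside the window only S100a1 remained (26.8% of all genes). With 50% of the shorter interval S100a1, S100a13 and S100a14 remained (36.5%). The S100a share, 8 of 15 (53.3%, 26.6 to 78.7%), had an interval that held the share of all genes. Among the 46 other members, none had H3K4me3 at the promoter, which leaves a share of up to 7.71%.

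H3K27ac was listed at 11 of 61 member promoters (18.0%, 9.36 to 30%), against 48.5% of all genes. The same 8 S100a genes carried it, together with Sprr1a, Lce6a and Crnn. H3K27ac without H3K4me3 was therefore seen at 3 of 61 members (4.92%, 1.03 to 13.7%) and at 0.891% of all genes. The peaks of Sprr1a and Lce6a were weak, with a −log10 q of 3.23 and 3.89. In the strongest 50% of H3K27ac peaks, only Crnn of these 3 remained. In the full lists, neither mark was at 50 members (82.0%), against 40.1% of all genes. Weak marks from fewer cells and from less mark per cell cannot be told apart in total epidermis, and a promoter without a peak is one that is not in the list, not one shown to lack the mark.

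MOF was listed at 3 of 61 member promoters (4.92%, 1.03 to 13.7%), against 25.9% of all genes. These were S100a14 with a score of 388, S100a16 with 449 and S100a3 with 522, all below the median of 653 over the 5629 genes with MOF. The scale of the score is not given in the sources used here, so it only ranks peaks. The list is also longer than the number of MOF peaks the study states, so its threshold is uncertain and every MOF share here rests on the longer list. All 3 promoters also held both histone marks. Within the 8 members with H3K4me3, MOF was therefore present at 3 (37.5%, 8.52 to 75.5%), close to the 42.3% of all genes with H3K4me3. The count depends on the window and the peaks kept. The nearest MOF peak of S100a11 lay 159 bp from its TSS, inside the gene and just outside the window. With 500 bp on either side of the TSS, S100a11 was added, giving 4 of the 8 members, against 42.8%. In the strongest 50% of peaks, MOF was at 0 of 61 members (15.9% of all genes). It was then at 0 of 6 members with H3K4me3, against 29.9%. H3K27ac was present at all 8 members with H3K4me3 (63.1 to 100%), an interval that held the 80.7% of all genes with H3K4me3. Rfx2 was listed at none of the 61 promoters, which leaves up to 5.87%, where the share of all genes was 1.36%.

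**Figure D2:**
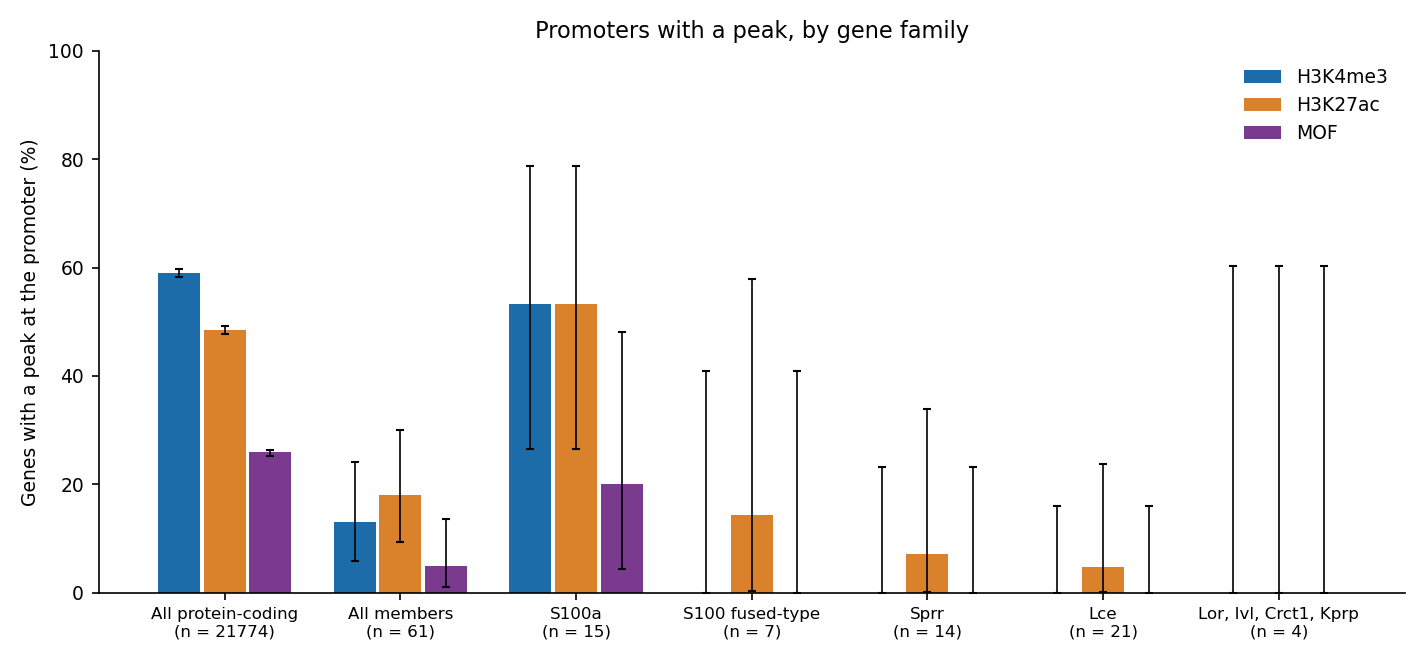
Percentage of genes with an H3K4me3, H3K27ac or MOF peak at the promoter, for all protein-coding genes, all 61 members and each family, with exact 95% intervals as error bars. The S100a bars reach 53.3% for both histone marks, and no other family has an H3K4me3 or MOF bar.

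Promoters of like CpG content were also set side by side. Of the 53 members in the promoter table with a CpG ratio under 0.4, H3K4me3 was at 4 (7.55%, 2.09 to 18.2%), where 14.4% of the 6740 genes with such promoters had it. H3K27ac was at 7 of them (13.2%, 5.48 to 25.3%) against 10.6%, and MOF at 2 (3.77%, 0.460 to 13.0%) against 4.99%. All 3 intervals held the share of such genes, with the S100a genes included. Without the S100a genes, H3K27ac was at 3 of 43 (6.98%, 1.46 to 19.1%) and H3K4me3 and MOF at none, which leaves up to 8.22%. Only S100a13 and S100a11 had a ratio of 0.4 or more, and both carried both marks. Among promoters with a TATA box, H3K4me3 was at none of 20 members (up to 16.8%) and at 26.8% of the 725 genes with one, H3K27ac at 1 (5.0%, 0.127 to 24.9%) and at 18.8%, and MOF at none (up to 16.8%) and at 13.2%. The H3K4me3 limit of the members outside the S100a family (8.22%) lay below the share of CpG-poor genes (14.4%). That of the TATA members (16.8%) lay below the share of genes with a TATA box (26.8%). No other window was run for these comparisons. With 2.5 kb on either side of the TSS, Lor, Lce1d, Crct1 and Tchh also had H3K4me3 (12 of 61 members, against 62.5% of all genes). S100a14 and S100a10, which carry both marks, and S100a14 also MOF, are not in the promoter table and so not in the CpG and TATA counts.

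The S100a genes were the marked family, at both ends of the cluster. S100a1 and S100a13 are transcribed away from each other and share an H3K4me3 peak of 1369 bp with 8.12-fold enrichment and an H3K27ac peak of 5.05-fold. S100a14 and S100a16, both known from epithelia, had H3K4me3 of 7.12- and 5.81-fold and H3K27ac of 6.50- and 3.85-fold. S100a3, known from the hair cuticle, had 5.26-fold H3K4me3 and 5.64-fold H3K27ac. The gene has 4 TSSs, and these peaks and its MOF peak lay near the same TSS. At a TSS farther downstream H3K27ac was 3.99-fold, and the H3K4me3 peak there (4.87-fold) lay outside the promoter window. S100a6 (calcyclin) had 5.32- and 5.03-fold.
At the far end of the cluster, S100a11, a partner of annexin A1, had the highest H3K4me3 of the 8 marked promoters, 9.11-fold over 1868 bp, with 4.09-fold H3K27ac. S100a10, the partner of annexin A2, had 5.90- and 5.18-fold. The median H3K4me3 enrichment of the 8 promoters was 6.51-fold (5.26 to 9.11), below the 8.10-fold median over all genes with H3K4me3, and only S100a1, S100a13 and S100a11 lay above that median. Widths had a median of 1636 bp, against 1306 bp over all such genes.

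The other 7 S100a genes had no peak of any list at the promoter. They were S100a2, S100a4, S100a5, S100a7a, S100a8, S100a9 and S100a7l2. S100a8 and S100a9, which form the antimicrobial complex calprotectin of inflamed skin and myeloid cells, were 45281 and 42370 bp from the nearest H3K4me3 peak. S100a4, known from motile and stromal cells, had an H3K27ac peak of 3.38-fold 780 bp from its TSS, inside the gene.

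**Figure D3:**
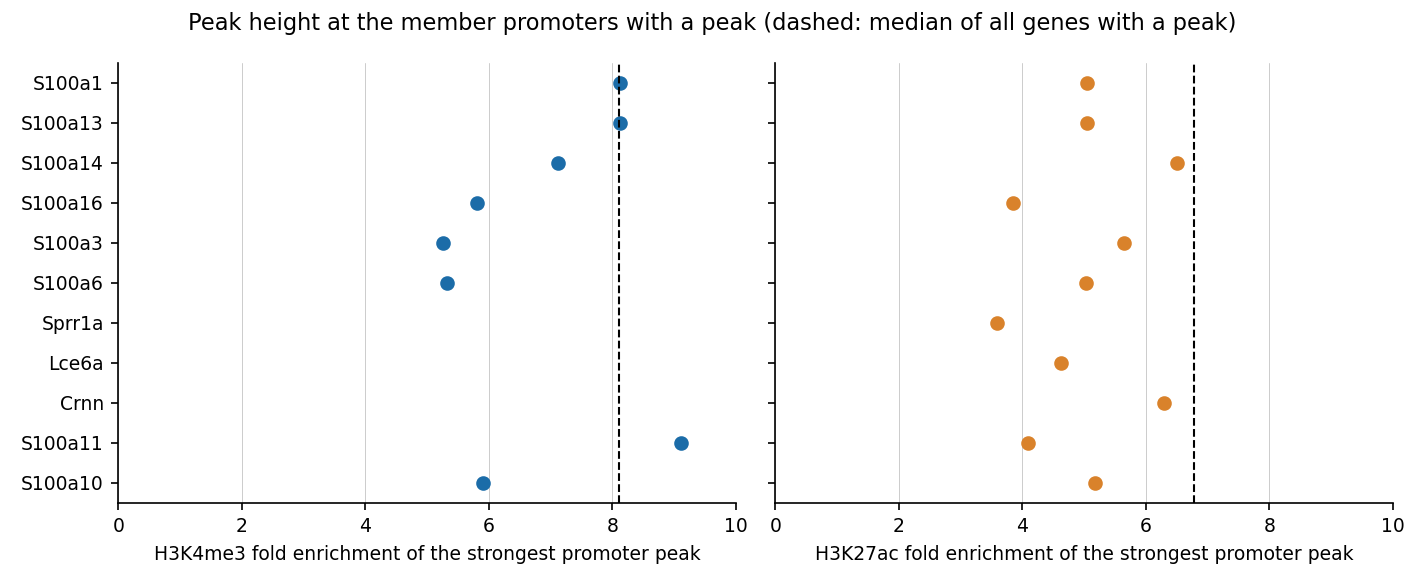
Fold enrichment of the strongest H3K4me3 (left) and H3K27ac (right) peak at each of the 11 member promoters with a peak, in genome order, with a dashed line at the median of all genes with a peak (8.10 and 6.78). Sprr1a, Lce6a and Crnn have a point on the right only, and all H3K27ac points lie left of the dashed line.

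The envelope genes Lor, Ivl, Crct1 and Kprp had no promoter peak. Lor encodes loricrin, the main protein of the cornified envelope, and its H3K4me3 lay inside the gene: a peak at chr3:92080384-92081976, 1593 bp wide with 9.24-fold enrichment, starting 1166 bp from the TSS. Its rank put it at percentile 77.1 of the H3K4me3 list, above the peak of S100a11. An H3K27ac peak of 4.63-fold and a MOF peak with a score of 423 overlapped it. Crct1 had H3K4me3 of 10-fold over 519 bp, at chr3:93014328-93014846, 840 bp from the TSS and inside the gene, the highest H3K4me3 enrichment in the whole cluster. Ivl, an early scaffold of the envelope, had no H3K4me3 within 66987 bp, and its nearest H3K27ac was 5806 bp away. Kprp had no H3K4me3 within 137729 bp.

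Among the S100 fused-type genes, Crnn (cornulin) had H3K27ac at the promoter, 6.29-fold over 721 bp, and no H3K4me3 within 129943 bp. Its promoter is 1 of those printed above with both an AP-1 site and a TATA box. Tchh encodes trichohyalin, a protein of hair follicle sheath cells, and carried 2 H3K4me3 peaks inside the gene, of 3.62- and 3.59-fold, and H3K27ac of 6.59-fold, the nearest H3K4me3 starting 1458 bp from the TSS. Flg2, Flg and Hrnr, which encode filaggrin 2, profilaggrin and hornerin, lay together in a stretch of 194 kb without a peak of any list. Flg has a predicted transcript only, and its TSS was taken from that. Rptn (repetin) had its nearest H3K27ac 7779 bp away, and Tchhl1 had no peak within 21071 bp.

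The 14 Sprr genes, which encode small proline-rich envelope proteins, had 1 marked promoter. Sprr1a carried 2 H3K27ac peaks at its promoter, the higher of 3.59-fold and 599 bp, low in the list at percentile 15.4. A stretch of 275 kb without H3K27ac covered the other Sprr genes from Sprr2a1 to Sprr3, 12 in all, and 1 without H3K4me3 of 347 kb covered Sprr2a1 to Sprr2i. Sprr2k had an H3K4me3 peak of 8.58-fold 3159 bp from its TSS, where 81.2% of the 31-base words occur again elsewhere in the genome.

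Of the 21 Lce genes, which encode late cornified envelope proteins, Lce6a alone had a promoter peak, an H3K27ac peak of 4.63-fold that is 202 bp wide. A stretch of 272 kb without H3K27ac held Kprp and the 13 Lce1 genes from Lce1a1 to Lce1l. The 6 Lce3 genes had no peak of any list within 22111 bp. Lce1d had H3K4me3 of 7.22-fold 1975 bp from its TSS, with 44.1% of its 31-base words recurring in the genome.

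When the window was extended from 1 kb upstream through the end of the gene, a choice made after seeing the data, H3K4me3 was at 11 of 61 members (18.0%, 9.36 to 30%) against 64.7% of all genes, with Lor, Crct1 and Tchh added. H3K27ac was at 14 (23.0%, 13.2 to 35.5%) against 55.5%, with S100a4, Lor and Tchh added. MOF was at 7 (11.5%, 4.74 to 22.2%) against 39.9%, with Lor, Sprr2a1, Sprr2a2 and S100a11 added. Rfx2 remained at none, against 1.56%. Thus 5 of the 46 members outside the S100a family, Lor, Sprr1a, Lce6a, Crnn and Tchh, had H3K27ac at the promoter or in the gene.

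Taken over the whole span, H3K27ac was denser than on the rest of chromosome 3, but unevenly. It had 26.8 peaks per Mb from S100a1 to S100a7l2 and 21.4 over the S100 fused-type genes. Over the Lce genes it had 7.24 per Mb, between S100a7l2 and Lor 3.08, and over the Sprr2 genes 0. The widest stretch without H3K27ac was 1280 kb and without H3K4me3 1342 kb, each with the start of 1 member, S100a7l2. The span held 54 H3K27ac peaks, 17.7 per Mb against 9.42 per Mb outside, covering 1.13% of the span against 0.588%. H3K4me3 had 24 peaks, 7.86 per Mb against 8.08, covering 0.718% against 0.732%. MOF had 16 peaks, 5.24 per Mb against 5.76, covering 0.544% against 0.426%. With 100 kb added on either side, H3K4me3 (9.53 per Mb against 8.04) and MOF (6.15 against 5.74) were above the rest of the chromosome, so only for H3K27ac (20.6 against 9.35) did the direction hold in both spans. Rfx2 had none, of 10 on the chromosome. In the 1 Mb before S100a1, a region of many other genes, the counts were 36 H3K4me3, 42 H3K27ac and 19 MOF peaks, and in the 1 Mb after S100a10 they were 10, 15 and 4.

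The H3K27ac peaks lay mostly away from promoters. No TSS was within 1 kb of the centre of 36 of the 54 (66.7%, 52.5 to 78.9%), against 60.0% of all H3K27ac peaks, and the interval held that value. From Lor to Tchhl1 there were 24 H3K27ac peaks (17.2 per Mb) and 7 H3K4me3 peaks (5.03 per Mb). The highest of these away from a member promoter was the peak in Tchh, followed by a peak at chr3:92554363-92554820, 6.48-fold and 19144 bp from the TSS of Ivl, and a 1456 bp peak at chr3:92893969-92895424 of 6.34-fold between Lce1l and Lce3a. H3K27ac peaks also stood between Sprr4 and Lce6a and, in a group of 4 with 3.79- to 5.73-fold, upstream of Rptn. Of the 36 peaks away from a TSS, 4 held, within 100 bases of the summit, TGANTCA (11.1%, 3.11 to 26.1%), close to the 10.7% of all 18431 such peaks.

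**Figure D4:**
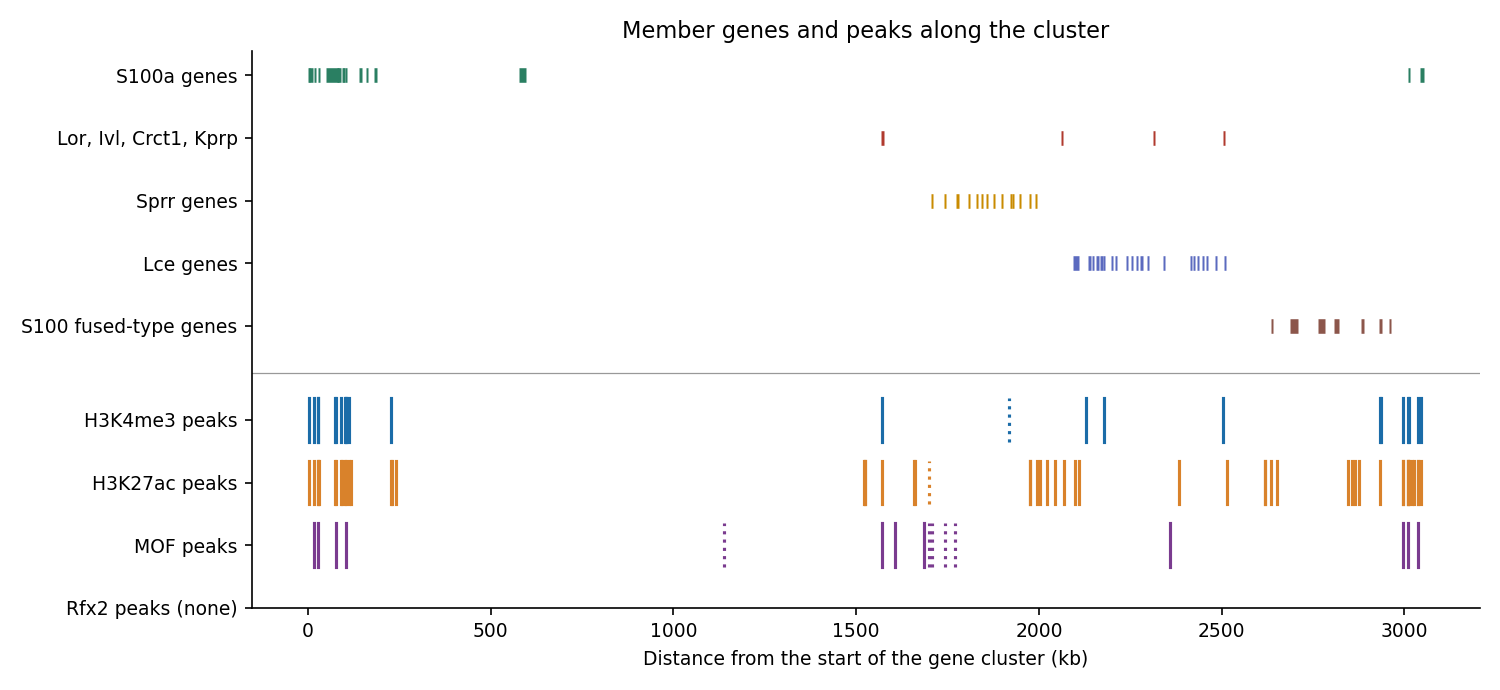
Map of the 61 member genes by family and of the peaks of each list, by distance in kb from the start of S100a1. Dotted lines are peaks in which 50% or more of the 31-base words recur in the genome. H3K4me3 gathers at the S100a genes of both ends, H3K27ac also stands along the middle, and 5 of 16 MOF lines are dotted.

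Of 16 MOF peaks, 8 overlapped H3K4me3 or H3K27ac (50%, 24.7 to 75.3%), against 45.5% of all 17546. These 8 lay at S100a14, S100a16, S100a3, S100a6, Lor, S100a11 and upstream of S100a11 and S100a10, with the highest score, 828, 13634 bp upstream of S100a11 on both marks.
The other 8 MOF peaks overlapped neither mark. With no recurring words, 3 of them lay 19455 bp upstream of Sprr2a1 (score 736, the second highest in the cluster), near Prr9 (357) and in 2310050C09Rik (357), and a peak near Gm36323 (651) had 55.7% recurring words. The remaining 4 stood around the Sprr2a copies. Those 4309 bp upstream of Sprr2a1 and 4214 bp upstream of Sprr2a3 scored 693 and 721, and those 3391 and 3388 bp downstream of the starts of Sprr2a1 and Sprr2a2 scored 321 and 318. In these 4 peaks 94.4 to 100% of the 31-base words recur in the genome. Of the words of the Sprr2a2 peak, 100% were in the Sprr2a1 peak at the same place, and the upstream peaks shared 86.2% and 87.0%. The promoters of Sprr2a1, Sprr2a2 and Sprr2a3 recur to 97.4 to 100%, measured on 31-base words and not at read length, and the part of this in the peaks was not tested. Between Sprr2a3 and Lce1l, a stretch of 587 kb with the starts of 28 members held no MOF peak, and the 636 kb from Lce3a to Tchhl1 with 15 members held none.

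The tissue was checked by H3K4me3 at marker promoters. It was listed at 5 of 8 keratinocyte markers, and Krt1, Krt10 and Itga6 had none, so the list also lacks the promoters of the suprabasal keratins Krt1 and Krt10. It was listed at 2 of 6 melanocyte, 0 of 5 immune, 3 of 5 fibroblast, 1 of 3 endothelial and 1 of 2 Merkel cell markers. The shares at keratinocyte (62.5%, 24.5 to 91.5%) and fibroblast markers (60.0%, 14.7 to 94.7%) were close to the 59.0% of all genes. The check therefore does not separate keratinocytes from fibroblasts. The part of cells other than keratinocytes in the S100a peaks was not tested. Keratin genes, the other clustered genes of keratinocytes, had H3K4me3 at 8 of 53 promoters (15.1%, 6.75 to 27.6%), H3K27ac at 5 (9.43%, 3.13 to 20.7%) and MOF at 4 (7.55%, 2.09 to 18.2%), against 59.0%, 48.5% and 25.9% of all genes.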

How the data were processed

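Peak lists of wild-type total epidermis at P0.5 were used as deposited. The authors aligned reads to mm10 with Bowtie2 and called peaks on each sample with MACS2, and a control library is not given in the sources used here. The deposited H3K4me3, H3K27ac and Rfx2 lists give the fold enrichment and the −log10 q-value of each peak, and the deposited MOF list gives a score. They hold 27039, 30736, 337 and 17546 peaks, the last more than the study states for MOF. Depth is unknown from them, and columns of peak names were not used. The H4K16Ac, H3K4me1 and other H3K4me3 and H3K27ac libraries were not analysed here. A longer or shorter list follows from depth and threshold, so lists were compared with all genes and not with each other.

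Genes and TSSs came from RefSeq on GRCm38.p6 (curated transcripts where a gene has any). Overlap was counted in Python 3.11.15 with pandas 2.3.3 and tested on simulated data against bedtools 2.31.1. The strongest overlapping peak was taken per gene. Exact intervals were computed with scipy 1.17.1. Recurrence is the share of 31-base words, on either strand, that occur more than once in the genome. Every member could be named, and of other genes and peaks only those of lists and the strongest peaks. The peak between Lce1l and Lce3a, the group upstream of Rptn and the ATAAA words were chosen after their values were seen. The members and lists were chosen with earlier results of these data known. Alternatives were other windows, overlap rules, transcripts and peak subsets.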

Additional observations from a re-analysis of the deposited data

How the results depend on the processing

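No paired analysis was possible because the lists hold no 2 libraries of the same antibody. Of 78 alternative values, 61 stayed within 1.5 times the reported count, density or median, or inside the interval of the reported share, and 17 did not. Requiring the peak centre inside the window left H3K4me3 at 1 member (all genes 26.8%), H3K27ac at 7 (28.1%) and MOF at 0% of the 1 member with H3K4me3 (34.4% of such genes). Requiring 50% of the shorter interval left H3K4me3 at 3 members (36.5%). Without the S100a genes, in the reported window, the counts were 0 for H3K4me3, 3 for H3K27ac and 0 for MOF. The H3K4me3 density from the first to the last of the other members was 5.03 per Mb. With 1 kb on either side of the TSS, H3K4me3 was also at Crct1, and with 2.5 kb also at Lor, Lce1d and Tchh. MOF was at 7 members with 2.5 kb on either side of the TSS (30.0%) and at 7 with the gene included (39.9%), the latter an alternative chosen after seeing the data. With the strongest 50% of peaks, MOF was at 0 members (15.9%) and at 0% of 6 members with H3K4me3 (29.9%), the densities were 2.62 for H3K4me3, 7.86 for H3K27ac and 1.64 for MOF per Mb (3.93, 4.66 and 2.92 outside), 20% of 5 MOF peaks lay on a mark (52.2% of all) and 50% of 24 H3K27ac peaks were away from a TSS (41.3%). The causes were not tested beyond what each rule leaves out. Without MOF peaks in recurring sequence, also added after seeing the data, 72.7% of 11 lay on a mark, since the 5 left out were all unmarked, and the same share over all MOF peaks was not computed. The share of members below that of all genes in H3K4me3, H3K27ac and MOF held under each alternative of window, overlap, transcript and subset that was run. Among CpG-poor promoters H3K27ac was at 13.2% of members and 10.6% of genes, at 6.98% of members without the S100a genes, and among TATA promoters at 5.0% and 18.8%. The directions of the H3K4me3 and MOF densities against the rest of the chromosome turned with 100 kb added on either side (9.53 and 6.15 per Mb, against 8.04 and 5.74). With 1 list per antibody, no value has a replicate check, and a peak too weak for its list cannot be told from an absent one.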

Other observations

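Over all protein-coding genes, H3K4me3 was at 59.0% of promoters, H3K27ac at 48.5% and MOF at 25.9%. Of 25 cornified envelope and barrier genes elsewhere in the genome, H3K4me3 was at 17 promoters (68.0%, 46.5 to 85.1%), H3K27ac at 15 (60.0%, 38.7 to 78.9%) and MOF at 5 (20%, 6.83 to 40.7%), intervals that hold the shares of all genes. Asprv1, a protease that processes profilaggrin, had 10.8-fold H3K4me3, and Evpl (envoplakin) had 9.12-fold H3K4me3 with 7.25-fold H3K27ac and MOF. Of 22 regulators with known roles in keratinocyte differentiation, 20 had H3K4me3 (90.9%, 70.8 to 98.9%), 18 H3K27ac (81.8%, 59.7 to 94.8%) and 5 MOF (22.7%, 7.82 to 45.4%). Among the AP-1 genes, Fosl1 had 10.8-fold H3K4me3, while Jun had 3.47-fold H3K4me3, a MOF score of 2351 and Rfx2 of 13.3-fold. The difference between these groups and the members was not tested, and these groups were not matched to other genes by CpG content. Of all genes with a promoter CpG ratio of 0.4 or more, 87.2% had H3K4me3, 73.6% H3K27ac and 40.4% MOF.

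The other 9 protein-coding genes that start inside the span, among them Pglyrp3, Pglyrp4, Prr9, Lelp1 and Smcp, had no H3K4me3, H3K27ac, MOF or Rfx2 at the promoter. Of the 45 protein-coding genes within 1 Mb of the span, 27 had H3K4me3 (60.0%, 44.3 to 74.3%), 23 H3K27ac (51.1%, 35.8 to 66.3%) and 15 MOF (33.3%, 20 to 49%), intervals that hold the shares of all genes.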
